A study of Homo sapiens with 6 samples.

Results

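The genes *CD44*, *ITGA6*, *FN1*, *CTNND1*, *ENAH*, *TPM1*, *PKM* and *MKNK2*, whose isoform switches are known from epithelial cells and tumors, were followed through RBM10 knockdown (KD). Every RefSeq isoform filed under these 8 gene symbols was taken, which gave 62 of 51398 isoforms and 8 of 26334 genes in the tables, with every isoform of a member kept. The cells were PC-9, a human lung adenocarcinoma line driven by mutant EGFR, which carried a scrambled shRNA (shScr) or an shRNA against RBM10 (shRBM10#1 or shRBM10#2). All were grown in RPMI with serum, and the study's methods name no drug treatment of the sequenced cells. Each condition had 2 RNA-Seq libraries, 6 in all. The labels and the study's results text give the control as shScr, although its methods describe parental PC-9 cells. Nothing states that the replicates came from separate cultures, so p-values measure the spread between libraries alone.

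RBM10 is an RNA-binding protein of the spliceosome whose loss changes which cassette exons are kept in mature mRNA. A cassette exon is an exon that can be left out of the transcript. Epithelial cells keep several such exons that mesenchymal cells skip, under the control of the ESRP splicing factors, and others are chosen as one of a mutually exclusive pair or through another last exon. In the genes studied here these choices set the extracellular stem of a receptor, the tail of an integrin, the start of an adhesion protein or the regulation of a kinase.

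Library totals ran from 31953729 to 37557507 expected counts, the fractional read counts that RSEM assigns to isoforms. The mean fragment was 231 nt long in shScr replicate 2 and 265 to 281 nt in the other libraries, and values without that library are given beside results that rest on it. The knockdown was checked on *RBM10* itself, at 83.2 and 86.2 CPM (counts scaled to a common library size) in shScr, 59.8 and 56.4 CPM under shRBM10#1 and 27.2 and 26.8 CPM under shRBM10#2. The log2 FC was −0.54 (SE 0.0671, FDR = 2.3e-04, edgeR) and, for the second shRNA, −1.65 (SE 0.0701, FDR = 5.2e-08, edgeR). The 6 epithelial markers examined, *EPCAM*, *CDH1*, *KRT8*, *KRT18*, *KRT19* and *ESRP1*, summed to 22497 to 24264 TPM (a level per transcript length) in shScr, 23623 to 25719 TPM with shRBM10#1 and 20288 to 21127 TPM with shRBM10#2, which was lowest without overlap. Nearly all of this sum was *KRT8*, *KRT18* and *KRT19*. With shRBM10#2, *KRT8* was at 8355 and 8783 TPM, against 9433 and 10066 TPM in shScr. *KRT19* was at 4420 and 4608 TPM, against 5530 and 5790 TPM. *EPCAM* was higher, at 455 and 444 TPM against 379 and 409 TPM, and *CDH1*, *KRT18* and *ESRP1* overlapped shScr. Each of the 5 mesenchymal markers, *VIM*, *ZEB1*, *ZEB2*, *CDH2* and *TWIST1*, stayed below 1 TPM in every library. Of markers of other cells, *PTPRC*, *CD3E* and *HBB* were below 1 TPM throughout, *CD68* gave nearly all of a blood cell list, at 99.5 and 116 TPM in shScr and 76.8 to 81.7 TPM in the KD libraries, and fibroblast and endothelial lists summed to at most 2.9 and 1.83 TPM. The part of these marker differences in the results below was not tested.

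The alternative exons on which the isoform groups below rest are shown here, read from GENCODE 29 transcripts (GRCh38), to which all 62 isoforms were matched, and written 5′ to 3′. In the first set, bases in capitals are the alternative exon and the 12 lower-case bases on either side belong to its neighbors. The *CD44* exons v2 (chr11:35196746-35196874, plus strand, exon 6 of 18, 129 nt) and v3 (chr11:35198121-35198246, exon 7 of 18, 126 nt) open the run of variable exons whose share rose. *CTNND1* exon A (chr11:57814311-57814373, plus strand, 63 nt), exon B (chr11:57815915-57816001, 87 nt) and exon C (chr11:57806461-57806478, 18 nt) tell its isoforms apart. *ENAH* exon 11a (chr1:225504991-225505053, minus strand, 63 nt) is the classic epithelial exon. For *ITGA6* the coding part of the A exon is shown (chr2:172501772-172501876, plus strand, 105 of 130 nt), with its upstream neighbor alone. Apart from the *ITGA6* exon, of which the coding part is also a multiple of 3, each of these is coding throughout and keeps the reading frame.
CD44 v2: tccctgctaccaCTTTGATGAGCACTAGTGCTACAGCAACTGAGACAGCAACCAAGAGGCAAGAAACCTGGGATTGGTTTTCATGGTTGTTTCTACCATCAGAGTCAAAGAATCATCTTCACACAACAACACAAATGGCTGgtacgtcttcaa
CD44 v3: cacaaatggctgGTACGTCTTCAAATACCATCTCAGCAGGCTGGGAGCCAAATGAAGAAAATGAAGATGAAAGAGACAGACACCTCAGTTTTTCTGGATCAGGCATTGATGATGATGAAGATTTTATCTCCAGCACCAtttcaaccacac
CTNND1 exon A: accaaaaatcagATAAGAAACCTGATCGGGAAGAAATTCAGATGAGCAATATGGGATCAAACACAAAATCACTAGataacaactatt
CTNND1 exon B: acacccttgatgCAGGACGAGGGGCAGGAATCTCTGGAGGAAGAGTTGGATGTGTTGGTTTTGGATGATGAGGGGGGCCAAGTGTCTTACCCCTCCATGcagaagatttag
CTNND1 exon C: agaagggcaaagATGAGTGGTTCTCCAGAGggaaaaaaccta
ENAH exon 11a: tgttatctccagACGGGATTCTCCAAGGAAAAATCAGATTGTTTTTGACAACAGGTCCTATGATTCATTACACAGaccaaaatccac
ITGA6 A exon: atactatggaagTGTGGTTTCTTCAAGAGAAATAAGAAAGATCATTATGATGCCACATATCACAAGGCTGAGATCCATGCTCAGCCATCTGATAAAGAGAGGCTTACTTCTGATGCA

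*CTNND1* protein isoforms are numbered by the start codon used, so the first 30 coding bases after each start are given next, with the start codon in capitals. The third start lies 101 codons into the reading frame of the first.
CTNND1 start 1: ATGgacgactcagaggtggagtcgaccgcc
CTNND1 start 2: ATGgccaacggcacactcacccgccggcat
CTNND1 start 3: ATGcaggagccggggcagattgtggagacc

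The *PKM* exons M1 (chr15:72203022-72203188, minus strand) and M2 (chr15:72202454-72202620) are alternatives of the same length, 167 nt, each exon 9 of 11 in its transcript. They are identical at 105 of 167 positions (62.9%), and the 62 bases that differ are in capitals.
PKM M1 exon: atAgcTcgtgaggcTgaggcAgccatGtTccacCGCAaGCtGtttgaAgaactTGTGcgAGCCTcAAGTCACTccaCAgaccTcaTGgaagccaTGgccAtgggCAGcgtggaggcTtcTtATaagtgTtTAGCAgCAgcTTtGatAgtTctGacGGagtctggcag
PKM M2 exon: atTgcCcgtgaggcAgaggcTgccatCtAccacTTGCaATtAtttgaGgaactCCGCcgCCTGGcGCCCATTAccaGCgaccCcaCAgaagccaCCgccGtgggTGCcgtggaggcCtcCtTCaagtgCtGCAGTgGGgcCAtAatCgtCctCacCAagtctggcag

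The gene totals moved modestly. Relative to shScr, *ITGA6* was lower with both shRNAs, and with shRBM10#2 *CD44* was also higher and *MKNK2* and *PKM* lower, while *CTNND1*, *ENAH*, *FN1* and *TPM1* passed with neither. With shRBM10#1, 1 of the 8 totals passed an FDR of 0.05, against 14.1% of the 14217 genes tested. With shRBM10#2, 4 of 8 passed, 1 higher and 3 lower, against 25.9% of genes, and between the shRNAs 2 of 8 passed, against 25.5%. With both shRNAs pooled (4 libraries), 1 of 8 passed (*ITGA6*), against 1.62% of genes. The median log2 FC of the 8 totals was −0.0525 with shRBM10#1 and −0.149 with shRBM10#2, beside 0.00798 and 0.00515 for all genes tested. In bulk RNA, fewer cells of a type and less RNA per cell cannot be told apart.

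**Figure D1:**
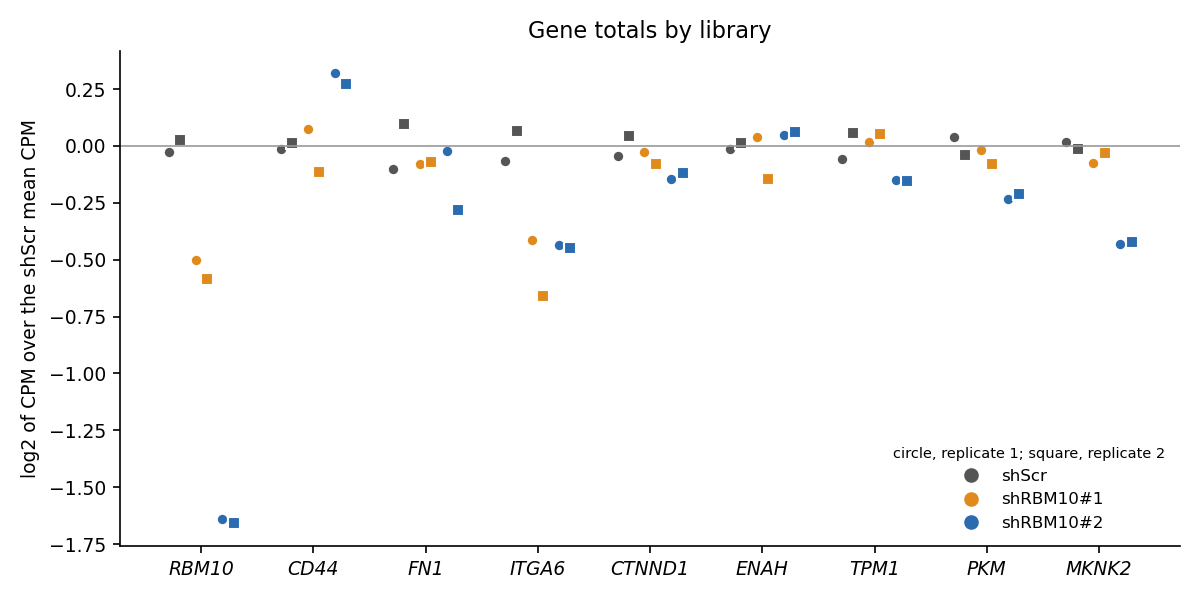
Gene totals of *RBM10* and the 8 genes in each library, as the log2 of CPM over the mean CPM of the 2 shScr libraries (vertical axis); each point is a library, circles for replicate 1 and squares for replicate 2. *ITGA6* lies below 0 in all 4 RBM10 KD libraries, *CD44* lies above 0 and *MKNK2* below 0 in both shRBM10#2 libraries, and *ENAH* stays within 0.15 of 0 in all 6.

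The genes were expressed at very different levels. *PKM* had the highest level per length, with a median over libraries of 2107 TPM (range, 1899.8 to 2408), followed by *CD44* at 224 TPM (181 to 254) and *CTNND1* at 122 TPM (119 to 152). *MKNK2* (67.8 to 105 TPM), *ITGA6* (61.5 to 119 TPM) and *TPM1* (54.6 to 70.1 TPM) overlapped in their ranges, whereas *FN1* (36.1 to 52.4 TPM) lay below them and *ENAH* (26.6 to 34.9 TPM) lowest, with no overlap. Every gene but *CD44* had its highest TPM in shScr replicate 2, the library with the shortest fragments. Without that library their highest values were 2235 (*PKM*), 128 (*CTNND1*), 91.4 (*MKNK2*), 93.8 (*ITGA6*), 62.6 (*TPM1*), 43.1 (*FN1*) and 32 TPM (*ENAH*). Of the 62 isoforms, 43 passed the filter on low counts, 5 had an expected count of 0 in every library, and 24 gave at least 5% of their gene in at least 1 library. The other 38 gave at most 4.13% of their gene.

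Isoform usage, the split of a gene's counts among its isoforms, was the more direct measure of a switch. It passed an FDR of 0.05 in 1 of the 8 genes with shRBM10#1 (*CTNND1*), against 0.172% of the 6406 genes with at least 2 isoforms past the filter. With shRBM10#2 it passed in 4 of 8, *CD44*, *CTNND1*, *PKM* and *FN1*, against 2.75% of genes. Between the shRNAs it passed in 1 of 8 (*FN1*), against 1.92%, and in the pooled comparison in 1 of 8 (*CTNND1*), against 0.515%. *ENAH*, *ITGA6*, *MKNK2* and *TPM1* passed in none of these comparisons, and their lowest unadjusted p in any of them was 0.0776 (*ENAH*, between the shRNAs; edgeR's diffSpliceDGE). The members were chosen with earlier results of these data known, so the counts beside the shares of all genes do not test the set. On simulated data this usage test also called more unchanged genes than its FDR allows, which applies to every usage FDR below.

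Single isoforms seldom met the criteria of the study's methods, an FDR below 0.05 with an absolute log2 FC above 1. With shRBM10#1, 0 of 43 met them in edgeR, against 0.0227% of the 26465 isoforms tested. An unadjusted p under 0.05 was reached by 7 of 43, beside 3835 of all 26465 isoforms (edgeR). DESeq2 called 1 member isoform, beside 525 of 35824 over all. With shRBM10#2, 2 of 43 did, *CD44* NM_000610 (higher) and *FN1* NM_001306132 (lower), against 0.491%, and 6 of 43 passed the FDR alone. The other 4 were *CD44* NM_001001389, *CTNND1* NM_001085462 and NM_001085468, and *MKNK2* NM_199054, each of which missed it without any 1 shScr or shRBM10#2 library (FDR = 0.117 to 0.241, edgeR). Between the shRNAs 1 of 43 met both criteria (NM_001306132), against 0.359%. With both shRNAs pooled 0 of 43 did in edgeR, against 0%, and 0 of 43 in DESeq2. Pooled, 8 of 43 had an unadjusted p under 0.05, beside 2875 of all 26465 isoforms (edgeR).

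*CD44* (chr11:35138870-35232402, plus strand) encodes a cell-surface receptor for hyaluronan, and its variable exons v2 to v10 lengthen the stem that carries the ligand-binding head. The gene gave 677 and 691 CPM in shScr, 719.9 and 631 CPM under shRBM10#1 and 854 and 827 CPM under shRBM10#2. The shRBM10#2 libraries were above all others, and the shRBM10#1 libraries lay on both sides of shScr. The log2 FC was 0.30 with shRBM10#2 (SE 0.0715, FDR = 0.01, edgeR), against −0.02 for shRBM10#1 (SE 0.0715, FDR = 0.901, edgeR), and the shRNAs differed from each other by 0.31 (FDR = 0.0073, edgeR). The call against shRBM10#1 was lost without either shRBM10#2 library (FDR = 0.0985 and 0.0636, edgeR). The call against shScr was lost without shScr replicate 1 (FDR = 0.0566, edgeR) and without either shRBM10#2 library (FDR = 0.119 and 0.0792, edgeR), and held without shScr replicate 2 (log2 FC 0.31, FDR = 0.0384, edgeR).

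A set of 4 isoforms made up nearly all of *CD44* in these cells, nested in how many variable exons they keep. The epithelial form with v8 to v10 alone (NM_001001390) was dominant in every library, with an IsoPct, the percent of the gene's transcripts, of 71.1 and 68.1 in shScr, 67.2 and 67.1 with shRBM10#1 and 60.8 and 61.8 with shRBM10#2. The form with v3 to v10 (NM_001001389) gave 21.2 and 22.2, then 22.4 and 23.4, then 27.8 and 27.4. The longest form, with v2 to v10 (NM_000610), gave 3.03 and 4.02, then 4.75 and 5.17, then 7.99 and 7.02. In all 3 the conditions did not overlap, and shRBM10#1 lay between shScr and shRBM10#2. The standard form without variable exons (NM_001001391) gave 4.53 and 5.54 in shScr, 5.58 and 4.26 with shRBM10#1 and 3.25 and 3.71 with shRBM10#2, so that shScr and shRBM10#1 overlapped. In counts, NM_000610 went from 751 and 1028 expected counts in shScr to 2806 and 2467 with shRBM10#2, and NM_001001389 from 5123 and 5536 to 9540 and 9405, while NM_001001390 went from 15203 and 15050 to 18427 and 18769, all before scaling for depth.

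With shRBM10#2, the log2 FC was 1.37 for NM_000610 (SE 0.16, FDR = 0.0391, edgeR), 0.63 for NM_001001389 (SE 0.0652, FDR = 0.0377, edgeR) and 0.09 for NM_001001390 (SE 0.0725, FDR = 0.534, edgeR). With shRBM10#1 these were 0.46, 0.05 and −0.08, with FDRs of 0.293, 0.80 and 0.704 (edgeR). The call of NM_000610 was lost when any single library was left out, at FDRs of 0.0585 to 0.231 (edgeR), with the log2 FC between 1.17 and 1.59. Isoform usage gave an FDR of 0.00261 with shRBM10#2 and of 0.722 with shRBM10#1 (diffSpliceDGE). The shRBM10#2 call was lost without shScr replicate 1 (FDR = 0.103) and without either shRBM10#2 library (FDR = 0.249 and 0.126), and held without shScr replicate 2 (FDR = 0.011; all diffSpliceDGE).

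Isoforms were also summed by the exons they hold, a step chosen after the data were seen, and the 2 sums were tested in place of the gene's isoforms. Together the *CD44* isoforms with v3 to v7 gave 25.2% ± 1.41 of the gene in shScr (SD, n = 2), 27.9% ± 1.05 with shRBM10#1 and 35.1% ± 0.983 with shRBM10#2. Their usage FDR was 0.0408 with shRBM10#2, and that of the isoform with v2 was 0.0105 (diffSpliceDGE). Each of these calls was lost without shScr replicate 1 and without either shRBM10#2 library, and that of v3 to v7 also without shScr replicate 2, at FDRs of up to 0.334. The fall of the v8 to v10 form, from 69.6% ± 2.09 to 61.3% ± 0.75, did not pass (FDR = 0.144, diffSpliceDGE). For any group share, an exact two-sided permutation test of 2 libraries against 2 cannot give a p below 0.333, nor 4 against 2 below 0.133, and the v3 to v7 share gave those values.

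**Figure D2:**
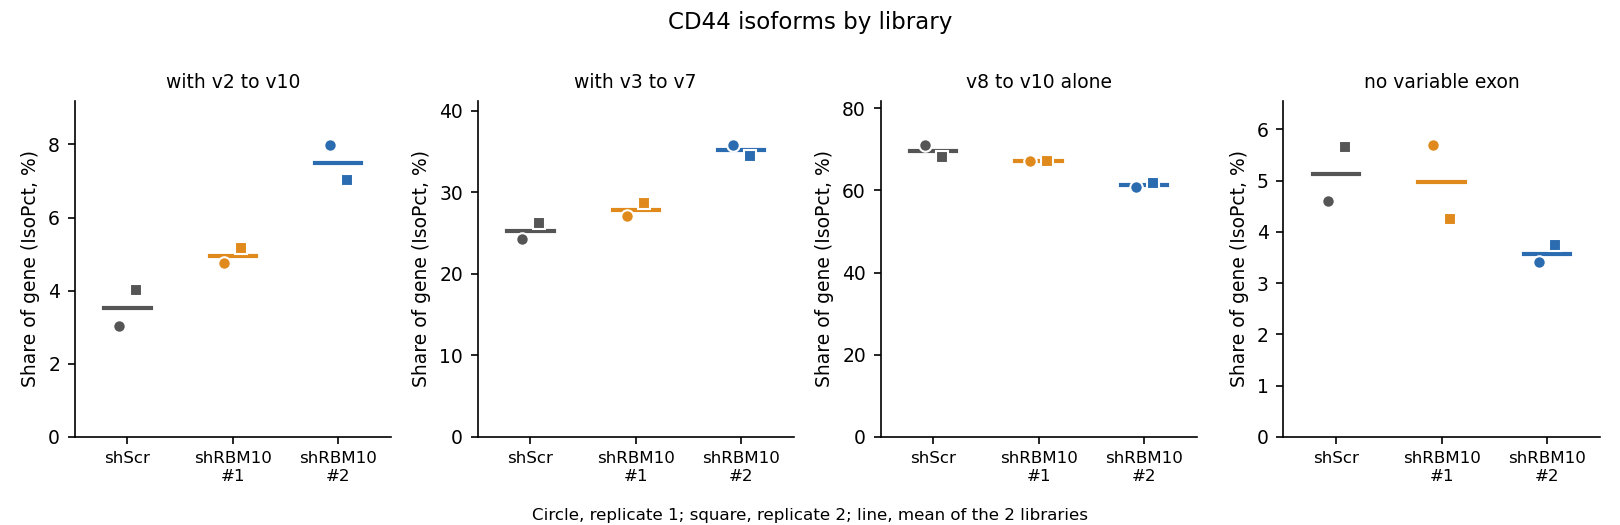
Share of *CD44* transcripts (IsoPct, percent, vertical axis from 0) by condition for the isoforms with v2 to v10, with v3 to v7, with v8 to v10 alone and without variable exons; circles are replicate 1, squares replicate 2 and lines the mean of 2 libraries. The first 2 panels step up from shScr to shRBM10#1 to shRBM10#2 without overlap, the third steps down, and shScr and shRBM10#1 overlap in the last.

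*ITGA6* (chr2:172427354-172506282, plus strand) encodes the α6 integrin subunit, which binds laminin in the basement membrane. It gave 364 and 399 CPM in shScr, 286 and 242 CPM under shRBM10#1 and 282 and 279.8 CPM under shRBM10#2. All 4 RBM10 KD libraries were below both shScr libraries. The log2 FC was −0.53 with shRBM10#1 (SE 0.0812, FDR = 9.5e-04, edgeR), −0.44 for shRBM10#2 (SE 0.081, FDR = 0.0024, edgeR) and −0.49 with both shRNAs pooled (SE 0.09, FDR = 0.0403, edgeR), and the shRNAs did not pass against each other (log2 FC 0.09, FDR = 0.448, edgeR). The call held for each shRNA under all alternatives run, at FDRs of at most 0.0173 and 0.0414, which includes leaving out shScr replicate 2 (log2 FC −0.46 and −0.37; edgeR). Pooled, it was lost with the replicate block and without either shScr library, shRBM10#1 replicate 2 or shRBM10#2 replicate 1.

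No difference in the tail of *ITGA6* passed beside the fall of its total. The A form (NM_000210) gave an IsoPct of 86.2 and 85.8 in shScr, 85.5 and 80.9 with shRBM10#1 and 86.0 and 85.9 with shRBM10#2, and the B form (NM_001079818) the remaining 13.9 to 19.1. Both shRBM10#1 libraries were below shScr in the A share and shRBM10#2 overlapped it. The A share was 86.0% ± 0.269 in shScr, 83.2% ± 3.21 with shRBM10#1 and 86.0% ± 0.0566 with shRBM10#2 (SD, n = 2), and usage had an FDR of 1 with either shRNA (diffSpliceDGE). As single isoforms neither passed, with a log2 FC of −0.58 for A and −0.29 for B with shRBM10#1 (FDR = 0.123 and 0.231, edgeR) and of −0.44 for each with shRBM10#2 (FDR = 0.104 and 0.068, edgeR).

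*FN1* (chr2:215360440-215436172, minus strand) encodes fibronectin, a matrix glycoprotein whose extra domains EDA and EDB and variable V region are set by splicing. The gene gave 225 and 258 CPM in shScr, 229 and 230.4 CPM under shRBM10#1 and 238 and 199 CPM under shRBM10#2. These ranges overlapped, and the log2 FC was −0.07 and −0.15 (FDR = 0.628 and 0.244, edgeR). The EDA exon (270 nt) was kept in most transcripts, at 72.2% and 71.2% in shScr, 70.4% and 70.5% with shRBM10#1 and 74.2% and 72.2% with shRBM10#2. The EDB exon (273 nt) was kept in 10.6% and 13.1%, then 10.2% and 8.68%, then 11.8% and 9.1%. Neither passed when its isoforms were summed, with an FDR of 1 in each comparison (diffSpliceDGE).

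Among *FN1* isoforms, 5 reached 5% of the gene. NM_002026, with EDA and an 89-residue V region, was the main form, at an IsoPct of 56.5 and 50.4 in shScr, 48.6 and 54.7 with shRBM10#1 and 48.4 and 51.3 with shRBM10#2. NM_212474, which lacks the V region, gave 11.3 to 15.2, NM_212476, with a 120-residue V region and no EDA, 8.57 to 14.9, and NM_212482, with EDA, EDB and a 120-residue V region, 8.68 to 13.1. NM_212478, with EDA and a 64-residue V region, gave 5.13 and 7.76, then 11.6 and 7.09, then 14.1 and 11.8. Its share was highest in the shRBM10#2 libraries, although its count overlapped between the shRNAs, at 33.6 and 23.5 CPM against 26.6 and 16.3 CPM, with 11.6 and 19.96 CPM in shScr. The log2 FC of the count against shScr was 0.86 with shRBM10#2 (SE 0.365, FDR = 0.263, edgeR).

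The usage call of *FN1* with shRBM10#2 (FDR = 0.0138, diffSpliceDGE) rested on a minor isoform. NM_001306132, named here because it was called and not for its share, has a 64-residue V region and no EDA. It had 293 and 164 expected counts in shScr, 74.7 and 207 with shRBM10#1 and 0 and 0.03 with shRBM10#2, which put it at least 87.9-fold lower than in shScr (3 counts per library as the floor). NM_212478, which shares its V region, went up where this form was 0. When both were summed, the V64 share was 9.26% and 9.75% in shScr, 12.6% and 9.61% with shRBM10#1 and 14.1% and 11.8% with shRBM10#2, and did not pass (FDR = 0.825, diffSpliceDGE). The usage test is less reliable for isoforms at 0 in some libraries, as here, and the call was lost with limma's diffSplice (FDR = 0.186), with 10 counts required in every library (FDR = 0.223), with isoforms of at least 5% of their gene (FDR = 0.412) and without any 1 RBM10 KD library (FDR = 0.0678 to 0.218), and it held without shScr replicate 2 (FDR = 0.00586).

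*CTNND1* (chr11:57753243-57819546, plus strand) encodes p120-catenin, which binds E-cadherin and keeps it at the cell surface. Its total was 484 and 514 CPM in shScr, 489 and 472 CPM under shRBM10#1 and 452 and 459 CPM under shRBM10#2, with a log2 FC of −0.06 and −0.13 (FDR = 0.612 and 0.145, edgeR). The total thus passed with neither shRNA, whereas the split among its isoforms passed with both. Usage had an FDR of 0.0205 with shRBM10#1, 6.9e-04 with shRBM10#2 and 0.0293 with both shRNAs pooled, and the shRNAs did not pass against each other (FDR = 0.476; all diffSpliceDGE).

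The isoform whose usage passed with both shRNAs was NM_001085468, which differs from NM_001085464 by the absence of exon B alone, an exon that encodes a nuclear export signal. NM_001085468 had an IsoPct of 25.6 and 26.9 in shScr, 17.0 and 13.9 with shRBM10#1 and 15.9 and 13.3 with shRBM10#2. NM_001085464, the same transcript with the exon, had 36.4 and 35.6, then 40.6 and 47.8, then 46.3 and 44.2. All 4 KD libraries lay below shScr in the former and above it in the latter. Of the pair, the form with exon B made up 58.7% and 57.0% in shScr, 70.6% and 77.4% with shRBM10#1 and 74.5% and 76.8% with shRBM10#2.

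For NM_001085468 the log2 FC of the count was −0.82 with shRBM10#1 (SE 0.14, FDR = 0.0979, edgeR), against −0.98 for shRBM10#2 (SE 0.14, FDR = 0.0458, edgeR). Measured against the other isoforms of *CTNND1*, it was −0.53 (FDR = 0.00501, diffSpliceDGE) and −0.59 (FDR = 1.98e-04, diffSpliceDGE). NM_001085464 did not pass, with a log2 FC of 0.24 and 0.20 (SE 0.0727 each, FDR = 0.247 and 0.209, edgeR). Another 2 forms without exon B differ from the pair in the 5′ UTR. NM_001085467 gave an IsoPct of 16.5 and 17.9, then 16.6 and 14.3, then 12.8 and 15.1, lowest on average with shRBM10#2, where its log2 FC was −0.43 (FDR = 0.151, edgeR). NM_001085469 gave 11.7 and 11.3, then 15.0 and 13.5, then 12.8 and 13.7, with all 4 KD libraries above shScr and a log2 FC of 0.25 and 0.07 (FDR = 0.298 and 0.737, edgeR).

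Over all isoforms, exon B was kept in 37.6% and 36.7% of *CTNND1* transcripts in shScr, 42.3% and 49.3% with shRBM10#1 and 47.5% and 47.0% with shRBM10#2. All 4 KD libraries exceeded shScr, by 8.66 and 10.1 percentage points on average. With the isoforms summed by exon B the difference did not pass, at an FDR of 0.473 with shRBM10#1 and 0.155 with shRBM10#2 (diffSpliceDGE), and the exact permutation p of 4 libraries against 2 was 0.133, the smallest it can give. Exon A was in 98.2% to 99.4% of transcripts in all libraries and exon C in 0.15% to 1.22%.

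The start codon of *CTNND1* moved with shRBM10#2. Isoforms that use the first start codon, the long form typical of mesenchymal cells, gave 4.90% and 4.88% of the gene in shScr, 5.62% in both shRBM10#1 libraries and 9.03% and 8.12% with shRBM10#2. Isoforms that begin at the third start codon, typical of epithelial cells, gave 95.1%, 94.0% and 90.9% of transcripts on average. Summed, their usage was lower with an FDR of 0.00159 with shRBM10#2 and 0.0361 between the shRNAs (diffSpliceDGE), and did not pass with shRBM10#1. The first of these calls was lost without shRBM10#2 replicate 1, and the second without any 1 of the 4 KD libraries. Nearly all of the long form was NM_001085462 (exon A, no exon B), with an IsoPct of 4.27 and 4.45, then 4.89 and 5.08, then 8.15 and 7.60, and its log2 FC with shRBM10#2 was 0.72 (SE 0.0792, FDR = 0.039, edgeR). Summed by the first start codon, usage had an FDR of 0.00346 with shRBM10#2, 1 with shRBM10#1 and 0.0429 between the shRNAs (diffSpliceDGE). The shRBM10#2 call was lost without either of its own libraries (FDR = 0.133 and 0.0605) and held without shScr replicate 2 (FDR = 0.0403), while the call between the shRNAs was lost without any 1 of the 4 KD libraries (FDR = 0.211 to 0.596). Isoforms with the second start codon were rare, at 5.67 and 0 expected counts in shScr and 31.8 to 111 in the KD libraries, and did not pass (FDR = 0.29 and 0.0906).

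The usage call of *CTNND1* with shRBM10#1 depended on having all libraries. It was lost without any 1 of the 6 (FDR = 0.0663 to 0.493), with 10 counts required in every library (FDR = 0.0568) and with the replicate block. With shRBM10#2 it was lost only without shRBM10#2 replicate 2 (FDR = 0.164), among the alternatives that kept the isoforms separate, and had an FDR of 0.0488 without shScr replicate 2. Pooled, it was lost without either shScr library (FDR = 0.694 and 1), without shRBM10#1 replicate 2 (FDR = 0.282) and without either shRBM10#2 library (FDR = 0.0884 and 0.285; all diffSpliceDGE).

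**Figure D3:**
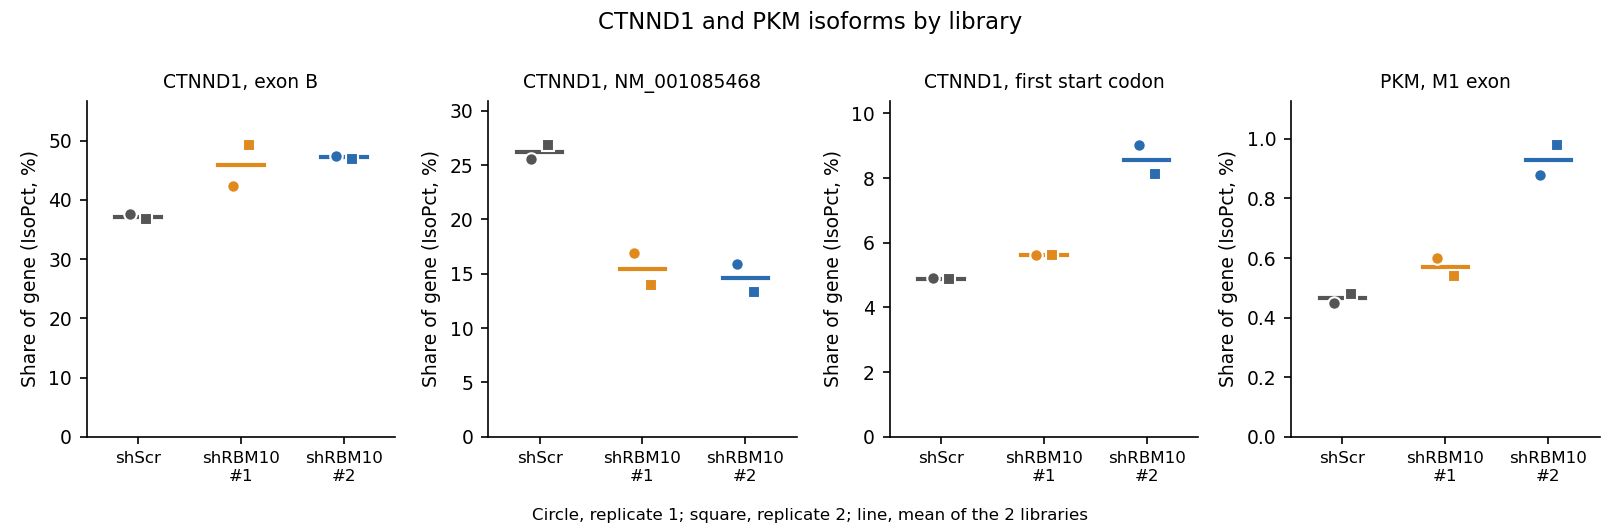
Share of the gene's transcripts (IsoPct, percent, vertical axes from 0) by condition for *CTNND1* isoforms with exon B, for NM_001085468, for isoforms with the first start codon, and for *PKM* isoforms with the M1 exon; circles are replicate 1, squares replicate 2 and lines the mean of 2 libraries. Exon B is higher and NM_001085468 lower in all 4 KD libraries, whereas the first start codon and the M1 exon rise mainly with shRBM10#2, from 4.89% to 8.57% and from 0.465% to 0.93% on average.

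*ENAH* (chr1:225486835-225653142, minus strand) encodes Mena, which lengthens actin filaments at the cell edge, and its exon 11a is a hallmark of epithelial splicing. It gave 268 and 273 CPM in shScr, 277 and 244 CPM under shRBM10#1 and 279.7 and 282 CPM under shRBM10#2, with a log2 FC of −0.05 and 0.05 (FDR = 0.673 and 0.609, edgeR). The isoform with 11a (NM_001008493) had an IsoPct of 79.4 and 82.0 in shScr, 83.2 and 82.8 with shRBM10#1 and 77.4 and 81.1 with shRBM10#2, and NM_018212 made up the rest, 16.9 to 22.6. The shRBM10#2 libraries overlapped shScr and the shRBM10#1 libraries lay just above it. The difference in 11a from shScr was 2.23 percentage points with shRBM10#1 and −1.5 with shRBM10#2, and usage had an FDR of 1 with either shRNA (diffSpliceDGE).

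*TPM1* (chr15:63042632-63071915, plus strand) encodes α-tropomyosin, which stiffens actin filaments, and its promoters give long forms from exon 1a and short forms from exon 1b. It gave 58.0 and 62.7 CPM in shScr, 61.1 and 62.6 CPM under shRBM10#1 and 54.4 and 54.3 CPM under shRBM10#2. The shRBM10#2 libraries were the lowest, with a log2 FC of −0.15 (FDR = 0.126, edgeR). Exon 1b was used in 39.5% and 41.3% of transcripts in shScr, 39.6% and 34.5% with shRBM10#1 and 36.5% and 38.2% with shRBM10#2, nearly all of it NM_001301289 (33.5 to 41.2). The long form NM_001018006 had an IsoPct of 52.6 to 61.4, and NM_000366 one of 1.36 to 6.71, its highest in shRBM10#1 replicate 1. The share of exon 1b thus differed from shScr by −3.36 percentage points with shRBM10#1, which overlapped shScr and had an SD of 3.57. With shRBM10#2 it differed by −3.06 points without overlap (SD 1.2, and 1.27 in shScr). Usage had an FDR of 1 with either shRNA (diffSpliceDGE).

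*PKM* (chr15:72199029-72231822, minus strand) encodes pyruvate kinase, the last enzyme of glycolysis, as the M1 form of muscle and brain or the M2 form of tumors and dividing cells. It gave 3492 and 3304 CPM in shScr, 3358 and 3214 CPM under shRBM10#1 and 2888 and 2933 CPM under shRBM10#2, the lowest of all. The log2 FC with shRBM10#2 was −0.22 (SE 0.0632, FDR = 0.0216, edgeR), a call lost without shScr replicate 1 (FDR = 0.0973), without either shRBM10#2 library (FDR = 0.198 and 0.171) and with the replicate block (FDR = 0.0646, edgeR). M2 (NM_002654) was almost the whole gene, with an IsoPct of 98.5 to 99.1 in the 6 libraries.

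The M1 exon stayed below 1% of the gene, and its share rose from 0.465% to 0.93% on average with shRBM10#2. The 4 RefSeq entries with it summed to 0.45% and 0.48% in shScr, 0.60% and 0.54% with shRBM10#1 and 0.88% and 0.98% with shRBM10#2, from 528 and 536, 634 and 650, and 959 and 1118 expected counts. The conditions did not overlap, and shRBM10#1 lay between the others. Usage had an FDR of 0.0123 with shRBM10#2 when isoforms were kept separate and of 0.00557 when the M1 entries were summed (diffSpliceDGE), and of 1 with shRBM10#1 in both. The rise sat in NM_182471, with 110 and 109 expected counts in shScr, 71.1 and 388 with shRBM10#1 and 628 and 753 with shRBM10#2. The M1 entries differ in their untranslated ends, and 3 of them fall on the same GENCODE transcript. Both calls were lost when any shScr or shRBM10#2 library was left out, at FDRs of 0.167 to 0.425 and of 0.0555 to 0.124 (diffSpliceDGE).

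*MKNK2* (chr19:2037465-2051244, minus strand) encodes a kinase that phosphorylates the translation factor eIF4E, and its last exon gives the a form, which binds MAP kinases, or the b form, which does not. It gave 172 and 169 CPM in shScr, 162 and 167 CPM under shRBM10#1 and 126 and 127 CPM under shRBM10#2. The shRBM10#2 libraries lay well below the other 4. The log2 FC was −0.43 with shRBM10#2 (SE 0.0604, FDR = 6.2e-04, edgeR), −0.05 for shRBM10#1 (FDR = 0.612, edgeR) and −0.37 between the shRNAs (SE 0.0604, FDR = 0.00116, edgeR). Both calls held under all alternatives run, at FDRs of at most 0.0202 and 0.0376, with −0.44 relative to shScr without shScr replicate 2 (edgeR).

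No difference in the last exon of *MKNK2* passed beside the fall of its total. The a form (NM_199054) had an IsoPct of 59.4 and 55.5 in shScr, 59.8 and 58.2 with shRBM10#1 and 59.1 and 61.7 with shRBM10#2, and the b form (NM_017572) the rest, 38.3 to 44.5. These ranges overlapped, and usage had an FDR of 1 with either shRNA (diffSpliceDGE). With shRBM10#2 the log2 FC was −0.38 for the a form (SE 0.0531, FDR = 0.0437, edgeR) and −0.57 for the b form (SE 0.0898, FDR = 0.0509, edgeR), short of an absolute log2 FC of 1 in both. Without any 1 shScr or shRBM10#2 library the a form had an FDR of 0.117 to 0.241 (edgeR).

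**Figure D4:**
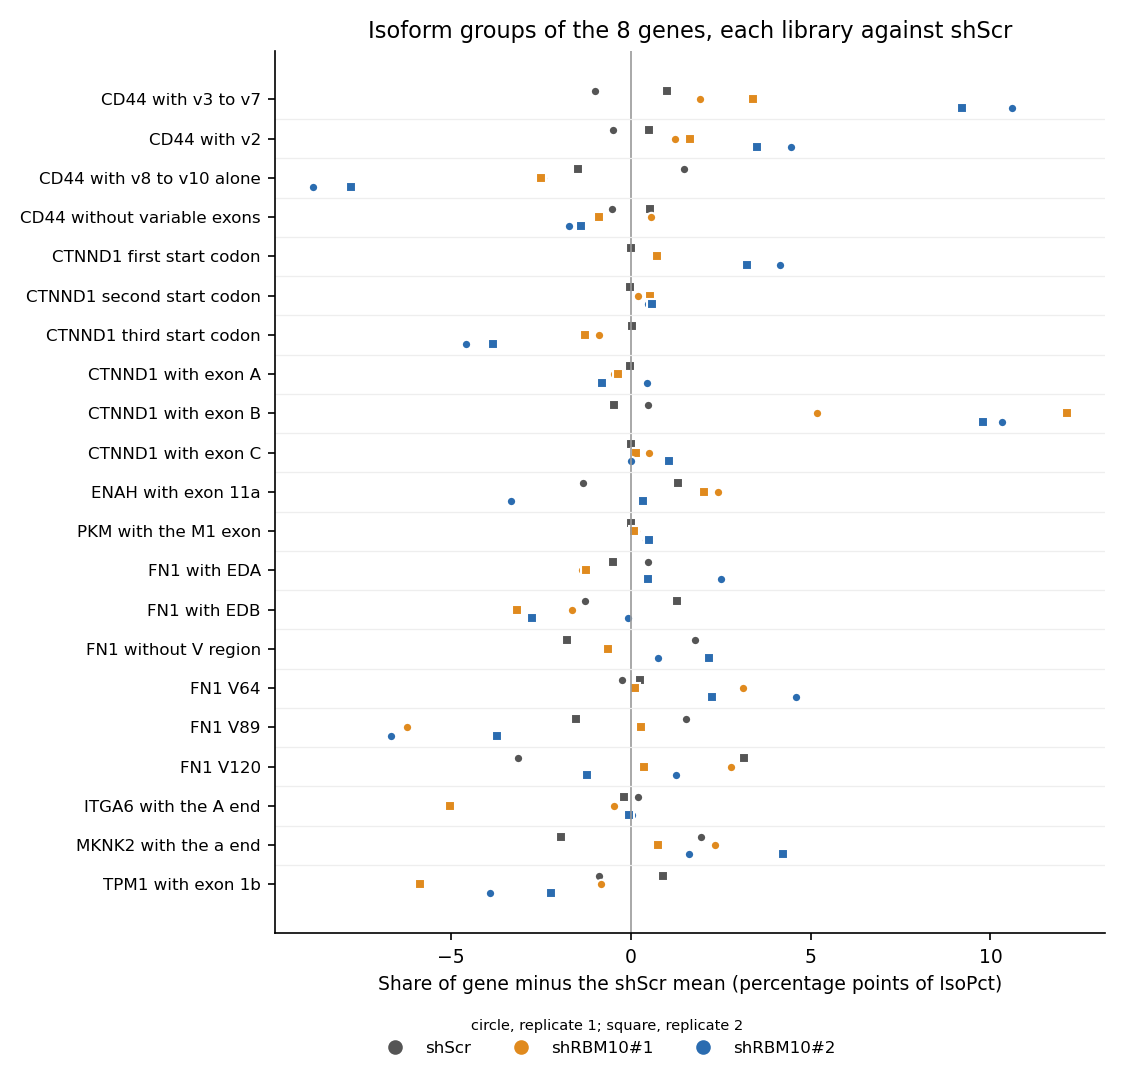
Each isoform group of the 8 genes (rows) as its share of the gene in a library minus the mean share in shScr (horizontal axis, percentage points of IsoPct); circles are replicate 1, squares replicate 2 and colors the conditions. *CD44* with v3 to v7 and *CTNND1* with exon B lie farthest to the right in the KD libraries, at 9.91 and 10.1 points on average with shRBM10#2, while the KD libraries lie on both sides of 0 for *ENAH* with exon 11a, *FN1* with EDA and *FN1* with a V region of 120 residues.

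A list of 24 other genes known for isoform switches in epithelial cells or tumors was read in the same fits. All 24 totals and the usage of 22 were tested. Usage passed with shRBM10#2 in 1 of 22, *RAC1*, a GTPase of the actin cytoskeleton (FDR = 0.00568, diffSpliceDGE), against 2.75% of all genes tested. It passed in 0 of 22 with shRBM10#1 and between the shRNAs by diffSpliceDGE, against 0.172% and 1.92% of genes. An unadjusted p under 0.05 was reached by 2 and 3 of 22, beside 395 and 556 of all 6406 genes (diffSpliceDGE). The *RAC1* total had a log2 FC of −0.02 (FDR = 0.824, edgeR). Of the totals, 5 were lower and 0 higher with shRBM10#1, and 11 were lower and 1 higher with shRBM10#2, against 14.1% and 25.9% of genes called in either direction (984 lower and 1019 higher, and 1975 lower and 1710 higher). Their median log2 FC was −0.0768 and −0.143.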

How the data were processed

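Isoform tables of 6 PC-9 RNA-Seq libraries were used as the authors deposited them, made with STAR 2.4 and RSEM 1.2.29 on RefSeq transcripts (hg19) per the submitters' processing notes. For each isoform the deposited tables hold an expected count, reads that fit several isoforms being divided among them by the authors' RSEM run. The deposited TPM values were scaled by the authors for transcript length and library, and the deposited IsoPct is the isoform's percent of its gene's TPM. Isoforms that share most exons draw on the same reads, so their split is a model estimate. Whether counting used strand is not given in the sources used here.

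Expected counts were rounded, summed per symbol for gene totals, scaled by TMM and filtered with filterByExpr. All genes or isoforms were fitted with 1 coefficient per condition, and for the pooled comparison with the 4 KD libraries as 1 group, by the quasi-likelihood test of edgeR 4.0.16 (R 4.3.3), with Benjamini-Hochberg adjustment (FDR) over all features tested. Isoform usage was tested by diffSpliceDGE with Simes p-values per gene. Calls needed an FDR below 0.05, and for isoform levels also an absolute log2 FC above 1. The SE is the absolute log2 FC over the square root of F. Summed IsoPct shares were compared by exact two-sided permutation tests over libraries (SciPy 1.17.1). Alternatives used DESeq2 1.42.0 and limma 3.58.1. Every total is named, as is every isoform with an IsoPct of at least 5 in 1 library. Of the other list, genes with called usage are named, at most 6. The members and lists were chosen with earlier results of these data known. On simulated data the level tests recovered the changed features, whereas the usage test called more unchanged genes than its FDR allows. Replicates of each condition differed by more than sampling noise (chi-square per degree of freedom 9.81, 12.5 and 3.24).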

Additional observations from a re-analysis of the deposited data

Results flagged for a closer look

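The shRNAs differed from each other in 2 of the 8 totals, beside 25.5% of the 14217 genes tested, so the count is about that of all genes. *CD44* was higher under shRBM10#2 than under shRBM10#1, by a log2 FC of 0.31 (FDR = 0.0073, edgeR), and *MKNK2* was lower, by a log2 FC of −0.37 (FDR = 0.00116, edgeR). *RBM10* itself also differed between them, with a log2 FC of −1.10 (FDR = 3.75e-06, edgeR), and the part of that depth of knockdown in the other differences was not tested. The isoform usage of *FN1* differed between the shRNAs with an FDR of 0.0349 (diffSpliceDGE), a call lost with limma's diffSplice (FDR = 0.668), the replicate block (FDR = 0.118), 10 counts in every library or isoforms of at least 5% of their gene (FDR = 1 each) and without any 1 KD library (FDR = 0.182 to 0.384). Its isoform NM_001306132 was at least 50.2-fold lower under shRBM10#2 than under shRBM10#1, where it had 74.7 and 207 expected counts against 0 and 0.03, and the bound was 30-fold without shRBM10#1 replicate 2 (a check chosen after the data were seen). Groups of 2 libraries are too small to mark any 1 library as far from the others.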

How the results depend on the processing

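Replicate numbers did not pair the libraries (correlations of deviations −0.0883, −0.052 and −0.0474). With the replicate block, no total was called in the pooled comparison (0, against 1), and no isoform with shRBM10#2 (0, against 2) or between the shRNAs (0, against 1). Usage was called in 0 genes with shRBM10#1 (against 1), 2 with shRBM10#2 (against 4), 0 between the shRNAs (against 1) and 0 pooled (against 1). Over all features the block called 52 of 14217 totals pooled (230 otherwise). It called 0 of 26465 isoforms with shRBM10#2 and between the shRNAs (130 and 95 otherwise). By usage it called 4, 83, 48 and 13 of 6406 genes in the comparisons as listed (11, 176, 123 and 33 otherwise). Requiring 10 counts in every library left 1 isoform with shRBM10#2 and 0 between the shRNAs, beside 249 and 182 of 20979 over all isoforms. It left 0 usage calls with shRBM10#1, between the shRNAs and pooled, beside 7, 81 and 9 of 4929 genes. DESeq2 called 1, 6 and 2 isoforms with shRBM10#1, with shRBM10#2 and between the shRNAs, beside 525, 799 and 705 of 35824 over all isoforms (6, 130 and 95 of 26465 in edgeR), and the FDR alone gave 6 and 4 in the last 2 comparisons. Fitting only the 2 conditions compared left 0 isoforms between the shRNAs, beside 0 of 25533 over all isoforms. With 1 coefficient per condition, the pooled comparison called 2 totals, beside 2611 of 14217 genes (230 otherwise), and 2 genes by usage, beside 96 of 6406 (33 otherwise). Usage restricted to isoforms of at least 5% of their gene was called in 2 genes with shRBM10#2 and 0 between the shRNAs. Over all genes this gave 146 and 89 of 4969. The limma test diffSplice called 0 between the shRNAs, beside 241 of 6406 genes, and an FDR below 0.01 left 0, 2 and 0 genes in the 3 comparisons.

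Each library was also left out in turn, where a lone library is assumed to vary like the other conditions. Calls then changed in number over all features as well as among the members, so counts of members are not given. These uncalled log2 FCs changed sign without some library. With shRBM10#1, the range was −0.12 to 0.0748 for *CD44*, −0.15 to 0.0385 for *ENAH*, −0.17 to 0.0292 for *FN1*, −0.0185 to 0.0947 for *TPM1*, −0.0121 to 0.11 for NM_001001389, −0.18 to 0.0147 for NM_001001390, −0.37 to 0.21 for NM_001001391, −0.11 to 0.0759 for NM_001008493, −0.0761 to 0.019 for NM_199054 and −0.0683 to 0.16 for NM_001018006. With shRBM10#2, it was −0.00035 to 0.13 for NM_001085469, −0.0135 to 0.0673 for NM_001008493, −0.0831 to 0.13 for NM_212474, −0.28 to 0.42 for NM_212476 and −0.36 to 1.35 for NM_000366. Between the shRNAs, it was −0.21 to 0.0577 for *FN1*, −0.028 to 0.21 for *ITGA6*, −0.47 to 0.11 for NM_001001391, −0.13 to 0.0552 for NM_001085464, −0.32 to 0.0166 for NM_001085468, −0.0456 to 0.14 for NM_001008493, −0.26 to 0.36 for NM_212482, −0.0127 to 0.30 for NM_000210 and −1.93 to 0.0858 for NM_000366.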
